A study of Mus musculus with 16 samples.

Results

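The set described here consists of 10 genes, Nqo1, Gclc, Gclm, Hmox1, Srxn1, Txnrd1, Slc7a11, Ephx1, Cbr3 and Abcc4, picked by gene symbol from the 31053 genes of the count matrices. They were picked because Ephx1 and several NRF2-responsive genes were known to differ between diabetic and control proximal tubule (PT) cells in these libraries, so the PT difference between genotypes is a description with no test. All 10 symbols were found once, and 9 of them passed the filter on low counts in at least 1 of the 11 cell classes examined; Slc7a11 passed in none.

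NRF2 (gene symbol Nfe2l2) is a transcription factor that is held in the cytoplasm and degraded through the adaptor KEAP1. Oxidants and electrophiles modify KEAP1, NRF2 then accumulates, and it binds antioxidant response elements next to genes of glutathione synthesis, thioredoxin recycling, quinone reduction, haem breakdown and drug export. In the kidney this pathway is best known as a defence of tubule cells against oxidative and toxic injury.

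The data were unique molecular identifier (UMI) counts of single kidney cells from 16 mice, 1 library per mouse. The diabetic nephropathy (DN) mice were BTBR ob/ob, which lack functional leptin and become obese and diabetic, and the control mice were BTBR +/+. Each genotype was sampled at 6 and at 12 weeks of age with 2 females and 2 males per age, and the study took these ages as onset and early stage. All mice of both genotypes also carried a fluorescent reporter at the Gt(ROSA)26Sor locus and a Cre transgene driven by a podocyte promoter, and both kidneys without the papilla were pooled per mouse. The suspensions were enriched for glomeruli by discarding PT fragments on a Percoll gradient, so the PT cells are those that this step left.

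The libraries held 116439 cell barcodes, of which 85668 were kept after filters and 69059 fell into the 11 classes; 10905 stayed in 16 unnamed clusters. Library totals were 10510855 to 21728793 UMIs in the first replicate of each female group and 83410397 to 125551519 in the other 12, and these 4 libraries also used another list of cell barcodes, which is treated below as a kit batch (the chemistry); shallow and deep below refer to these totals. By UMIs per barcode the lowest library was control male 6 weeks replicate 2, with a median of 698 although its total was in the higher range. This library stood apart by the depth of its cells: it supplied at least 99% of 3 clusters, 1 PT-like, 1 CNT-like and 1 unnamed, whose median UMIs per cell were 28.3, 36.1 and 39.8 times that of its filtered cells. Before doublets were removed, the PT-like one held 22.0% of its PT-like cells and 81.7% of their UMIs, and the CNT-like one 5.76% and 66.0%. Main results are also given without this library and its DN counterpart, a choice made after seeing the data. Libraries of the same barcode list shared 7 to 55 barcodes per pair. The marker genes of each class were higher in that class than in any other class in every library for 10 of the 11 classes. The exception was the connecting tubule (CNT), and the reason was not tested. In 4 named clusters the median depth of the cells was only 0.116 to 0.217 of the library median. These were 1 each of CNT-like, principal, mesangial-like and podocyte-like cells, the CNT-like one with 9121 cells before doublets were removed. Levels are UMIs of a gene per 1000000 UMIs of a class in a library (counts per 1000000, CPM), and in such sums fewer expressing cells and less RNA per expressing cell cannot be told apart.

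The promoters of the members that the PT values turn on are shown first. RefSeq windows (build GRCm38.p6, 250 bases before to 50 bases after a transcript start) were available for 8 of the 10 genes, and each was searched on both strands for TGACNNNGC, the core letters of the antioxidant response element. Matches are in capitals, and a match written GCNNNGTCA lies on the minus strand relative to the gene. The letters were present in windows of Gclm, Srxn1, Txnrd1 and Abcc4 and in none of Ephx1, Cbr3, Nqo1 and Slc7a11. Of all 32851 windows 12.4% held the letters, and 14.0% of 27025 genes held them in at least 1 window. Ephx1 (chr1:181017520-181017819, minus strand) and Cbr3 (chr16:93682969-93683268, plus strand) are shown for the largest PT differences, and Abcc4 (chr14:118706170-118706469, minus strand) and Gclm (chr3:122245307-122245606, plus strand) for a match and for their levels by sex.
Ephx1: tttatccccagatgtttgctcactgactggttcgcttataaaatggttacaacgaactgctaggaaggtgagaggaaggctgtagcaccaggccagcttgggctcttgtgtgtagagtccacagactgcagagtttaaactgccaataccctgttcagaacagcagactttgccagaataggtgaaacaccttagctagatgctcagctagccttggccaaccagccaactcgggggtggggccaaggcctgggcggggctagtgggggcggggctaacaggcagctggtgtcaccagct
Cbr3: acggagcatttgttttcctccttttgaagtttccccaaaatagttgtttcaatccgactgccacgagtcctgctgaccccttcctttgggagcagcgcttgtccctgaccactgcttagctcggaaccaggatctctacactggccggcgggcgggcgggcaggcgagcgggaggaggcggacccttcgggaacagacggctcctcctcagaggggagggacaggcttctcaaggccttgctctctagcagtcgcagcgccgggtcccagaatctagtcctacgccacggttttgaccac
Abcc4: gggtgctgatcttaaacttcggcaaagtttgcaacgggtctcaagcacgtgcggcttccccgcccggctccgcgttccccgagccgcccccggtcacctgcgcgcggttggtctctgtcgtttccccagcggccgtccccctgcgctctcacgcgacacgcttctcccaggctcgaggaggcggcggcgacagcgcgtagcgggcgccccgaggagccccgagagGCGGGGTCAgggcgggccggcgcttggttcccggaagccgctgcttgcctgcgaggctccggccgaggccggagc
Gclm: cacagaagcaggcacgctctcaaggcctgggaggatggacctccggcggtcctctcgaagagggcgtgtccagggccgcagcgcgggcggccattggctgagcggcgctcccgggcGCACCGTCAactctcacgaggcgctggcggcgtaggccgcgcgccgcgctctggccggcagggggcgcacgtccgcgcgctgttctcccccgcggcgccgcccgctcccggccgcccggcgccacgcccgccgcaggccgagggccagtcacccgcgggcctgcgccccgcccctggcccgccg
The genes themselves span chr1:180976210-181020904 (Ephx1, minus strand), chr16:93683215-93690990 (Cbr3, plus strand), chr14:118482692-118706219 (Abcc4, minus strand) and chr3:122245557-122270732 (Gclm, plus strand) in GRCm38, and Hmox1 and Nqo1 lie at chr8:75093621-75100589 (plus strand) and chr8:107388225-107403206 (minus strand). Reads were assigned to whole genes. Txnrd1 overlaps Eid3 on the same strand, so its counts are less certain. The match in the Abcc4 window started 25 bases before the transcript start and that in the Gclm window 134 bases before it. A match describes the letters only, and the windows without one say nothing about binding elsewhere in these genes.

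The members had different homes along the nephron and in the glomerulus of control mice. Gclc, the catalytic subunit of glutamate-cysteine ligase that limits glutathione synthesis, was highest in type A intercalated cells (IC-A) at 399 ± 67.4 CPM (SD, n = 8 here and in the next sentences), then in distal convoluted tubule (DCT) at 336 ± 66.3 CPM and type B intercalated cells (IC-B) at 328 ± 56.9 CPM, which did not differ beyond their spread. Its steps down from IC-B to CNT, PC and PT (79.4 ± 30.6 CPM) were each larger than the spread. Gclm, the modifier subunit of the same enzyme, was highest in PT-like cells at 245 ± 51.2 CPM and next in mesangial-like cells at 109 ± 17.9 CPM, and the PT level was above the mesangial level in 8 of 8 libraries. Among the named classes the subunits were thus highest in different ones. In control mice an unnamed PT cluster, described below, had Gclc at 412 ± 146 CPM and Gclm at 1006 ± 151 CPM (n = 7).

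Nqo1, a quinone reductase that is a standard readout of NRF2, was highest in DCT-like cells at 31.7 ± 8.21 CPM, and its next levels, between 18 and 22.3 CPM in descending loop of Henle (dLOH), CNT, PT and principal cells (PC), differed neither from each other nor, for dLOH, from DCT beyond their spread. Srxn1, which repairs overoxidised peroxiredoxins, ranged from 44.7 to 57.2 CPM in the 5 distal classes, and the PC level, the lowest of these, was above that of dLOH-like cells (24.2 ± 11.3 CPM) in 7 of 8 libraries. Txnrd1, the cytosolic thioredoxin reductase, was the most evenly spread, from 37.1 ± 11.2 CPM in glomerular endothelial cells (EC) to 80.7 ± 19.6 CPM in CNT-like cells among the 11 classes. Abcc4, an efflux pump for organic anions and cyclic nucleotides, was highest in dLOH-like cells at 42.4 ± 22.4 CPM, not beyond the spread of the next classes, and at 0.736 ± 1.11 and 1.34 ± 1.98 CPM in podocyte-like and mesangial-like cells.

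Ephx1, the microsomal epoxide hydrolase of drug and lipid epoxide metabolism, was highest in the control mice in mesangial-like (137 ± 38.7 CPM) and podocyte-like cells (137 ± 36.7 CPM), which did not differ beyond their spread, and the podocyte level was above that of glomerular EC-like cells (81.9 ± 33.5 CPM) in 8 of 8 libraries. One tubule class, dLOH-like cells, was at 72.5 ± 18.7 CPM, within the spread of glomerular EC-like cells. Ephx1 was lowest in PT-like cells at 2.00 ± 0.987 CPM, under the CNT level of 21.5 ± 7.49 CPM in 8 of 8 libraries. PT was the lowest class for Ephx1 in the DN mice too, at 13.9 ± 5.98 CPM.

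Cbr3, Hmox1 and Slc7a11 were highest in cells outside the tubule. Cbr3, a carbonyl reductase, was highest in mesangial-like cells at 38.6 ± 18.2 CPM, above glomerular EC-like cells (20.0 ± 6.71 CPM) in 7 of 8 libraries. Hmox1, which breaks down haem, was at 26.8 ± 10.3 CPM in mesangial-like cells and at 31.4 ± 24.0 CPM in immune cells (705 cells over both genotypes). These levels did not differ beyond their spread. Slc7a11, the cystine importer that feeds glutathione synthesis, was at 29.2 ± 38.5 CPM in immune cells and 4.68 ± 3.27 CPM in mesangial-like cells, and at or under 1.30 CPM in the other classes. In DN mice Hmox1 in immune cells was at 101 ± 98.8 CPM and Slc7a11 at 11.8 ± 11 CPM, and these were not tested, with 13 to 140 immune cells in each of the 16 libraries.

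**Figure D1:**
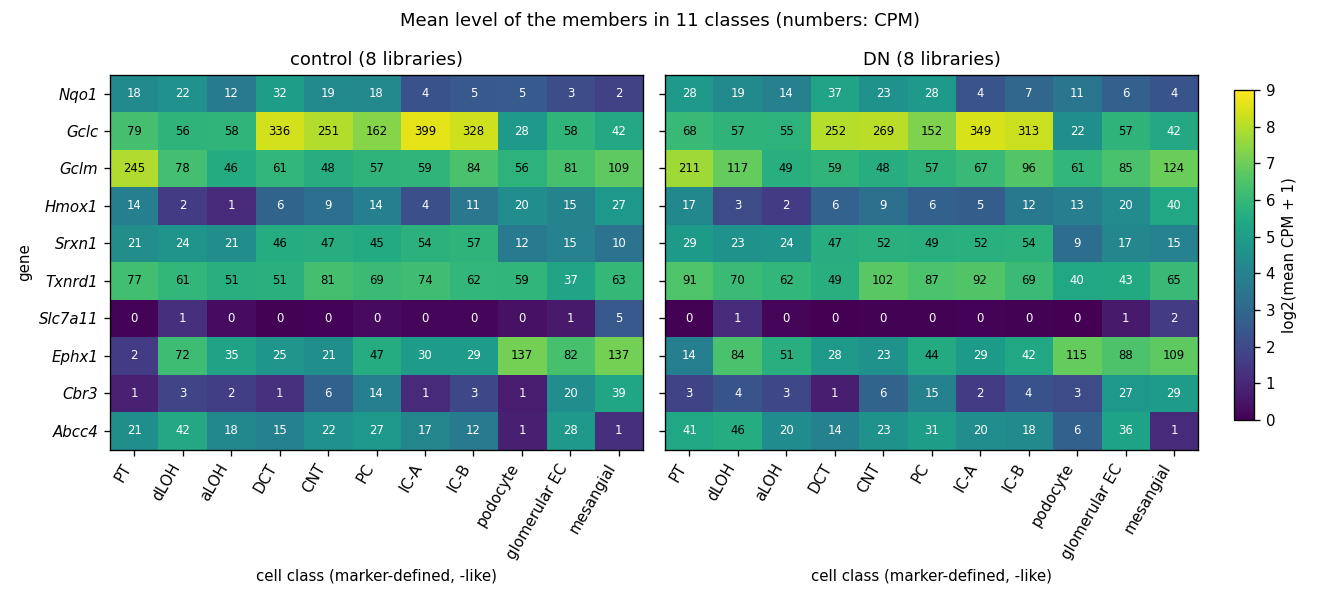
Mean level of the 10 genes in 11 marker-defined classes, control mice on the left and DN mice on the right (8 libraries each). Colour is log2(mean CPM + 1) and the printed numbers are mean CPM; Gclc is brightest in DCT-, CNT- and intercalated-like cells, Gclm in PT-like cells and Ephx1 in podocyte- and mesangial-like cells, and the Ephx1 cell of the PT column is the gene's darkest in both genotypes.

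In PT-like cells, Ephx1, Cbr3 and Abcc4 stood highest in DN against control mice, and the genes of glutathione synthesis did not share this. Ephx1 in the control mice was at 0 and 2.37 CPM in the females and 1.66 and 3.19 CPM in the males at 6 weeks, and in the DN mice of that age at 5.22 and 13.4 CPM in the females and 20.1 and 12.7 CPM in the males. At 12 weeks the control values were 2.93 and 2.35 CPM in females and 1.65 and 1.82 CPM in males, and the DN values 7.36 and 23 CPM in females and 12.8 and 16.8 CPM in males. Every DN library was above every control library at both ages. The fitted log2 difference was 2.74 ± 0.31 (SE), or 6.68-fold, at 6 weeks and 2.87 ± 0.30, or 7.29-fold, at 12 weeks. The PT-like sums held 160 UMIs of Ephx1 over the 8 control libraries and 1827 over the 8 DN libraries.

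Cbr3 was a low gene in PT-like cells, with 46 UMIs over the control and 194 over the DN libraries. Its control values ran from 0 to 1.27 CPM at 6 weeks and from 0.275 to 2.01 CPM at 12 weeks, and its DN values from 0.941 to 6.53 CPM and from 0.543 to 4.12 CPM. The ranges overlapped, the highest values being those of females in both genotypes, and the DN library was above the control library of the same sex and replicate number in 4 of 4 pairs at each age. No label pairs these mice. For these pairs and those below, the share of all genes with 4 of 4 in the same direction is not given. The log2 difference was 2.10 ± 0.48 at 6 weeks and 1.23 ± 0.42 at 12 weeks.

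Abcc4 was far apart between genotypes in males, and the test of whether the sexes differ in this is given below. In control males it was at 5.32 and 5.88 CPM at 6 weeks and 7.54 and 12.2 CPM at 12 weeks, and in DN males at 45.8 and 38.1 CPM and at 25.2 and 44.2 CPM. In control females it was at 30.6 and 31.2 CPM and then 23.4 and 52.8 CPM, and in DN females at 24.1 and 44.9 CPM and then 30.5 and 71.4 CPM. The DN and control ranges were apart in males and overlapped in females. The share of all genes that were apart in males was not counted. Over both sexes the log2 difference was 1.69 ± 0.46 at 6 weeks and 1.08 ± 0.41 at 12 weeks. It was also fitted by PT segment, a split chosen after seeing the data and described below. In S1-like cells it was 0.98 ± 0.28 and 0.41 ± 0.24 at the 2 ages. In S2-S3-like cells it was 2.27 ± 0.71 and 1.97 ± 0.66, and whether the segments differ was not tested. Without control male 6 weeks replicate 2 and its DN counterpart the 6 weeks difference was 1.29 for Abcc4, 1.90 for Cbr3 and 3.11 for Ephx1.

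Smaller differences were seen for Nqo1 and Srxn1. Nqo1 was at 17.3 ± 6.76 CPM in the 4 control and 27.4 ± 8.86 CPM in the 4 DN libraries at 6 weeks, and at 18.9 ± 5.15 and 28.7 ± 3.62 CPM at 12 weeks, with the DN library higher in 4 of 4 pairs at each age. Srxn1 was between 18.1 and 20.7 CPM in control and between 23.9 and 37.2 CPM in DN libraries at 6 weeks, ranges that do not overlap, and at 21.6 ± 3.62 and 27.3 ± 8.28 CPM at 12 weeks, where they do. Txnrd1 (log2 difference 0.16 ± 0.21 and 0.26 ± 0.20 at the 2 ages) and Hmox1 (0.24 ± 0.34 and 0.35 ± 0.33) differed by about their standard errors. For Txnrd1 the DN library was higher in 4 of 4 pairs at 12 weeks but not at 6 weeks. Gclc was at 86.1 ± 37.0 CPM in control and 64.0 ± 28.1 CPM in DN libraries at 6 weeks (log2 difference -0.46 ± 0.14, lower in 4 of 4 pairs) and at 72.7 ± 26.5 and 72.5 ± 25.1 CPM at 12 weeks. Gclm was at 231 ± 58.9 and 206 ± 44.3 CPM at 6 weeks and at 259 ± 46.0 and 216 ± 28.5 CPM at 12 weeks. The DN library was lower for Gclm in 4 of 4 pairs at 12 weeks but not at 6 weeks.

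Of the 9 members tested in PT-like cells, 7 had a positive difference at each age, with a median log2 difference of 0.59 at 6 weeks and 0.35 at 12 weeks, beside 0.01 and 0.02 over all 12132 genes. Ephx1 was the 1 member past an adjusted p of 0.05 at each age, where 0.882% of all genes at 6 weeks and 0.973% at 12 weeks were. With the replicate block 4 members were past it at 6 weeks (Ephx1, Srxn1, Nqo1 and Cbr3), where 2.19% of all genes were. Since this contrast chose the genes, nothing is read from these counts. Ranges of 4 control and 4 DN libraries that do not overlap were found for 1.47% of genes at 6 weeks and 2.41% at 12 weeks. PT markers summed to 10734 to 13633 CPM in control and 8833 to 11988 CPM in DN PT-like sums at 6 weeks, and the 15 genes of the dissociation stress list summed to 365 ± 26.5 and 366 ± 74.8 CPM.

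**Figure D2:**
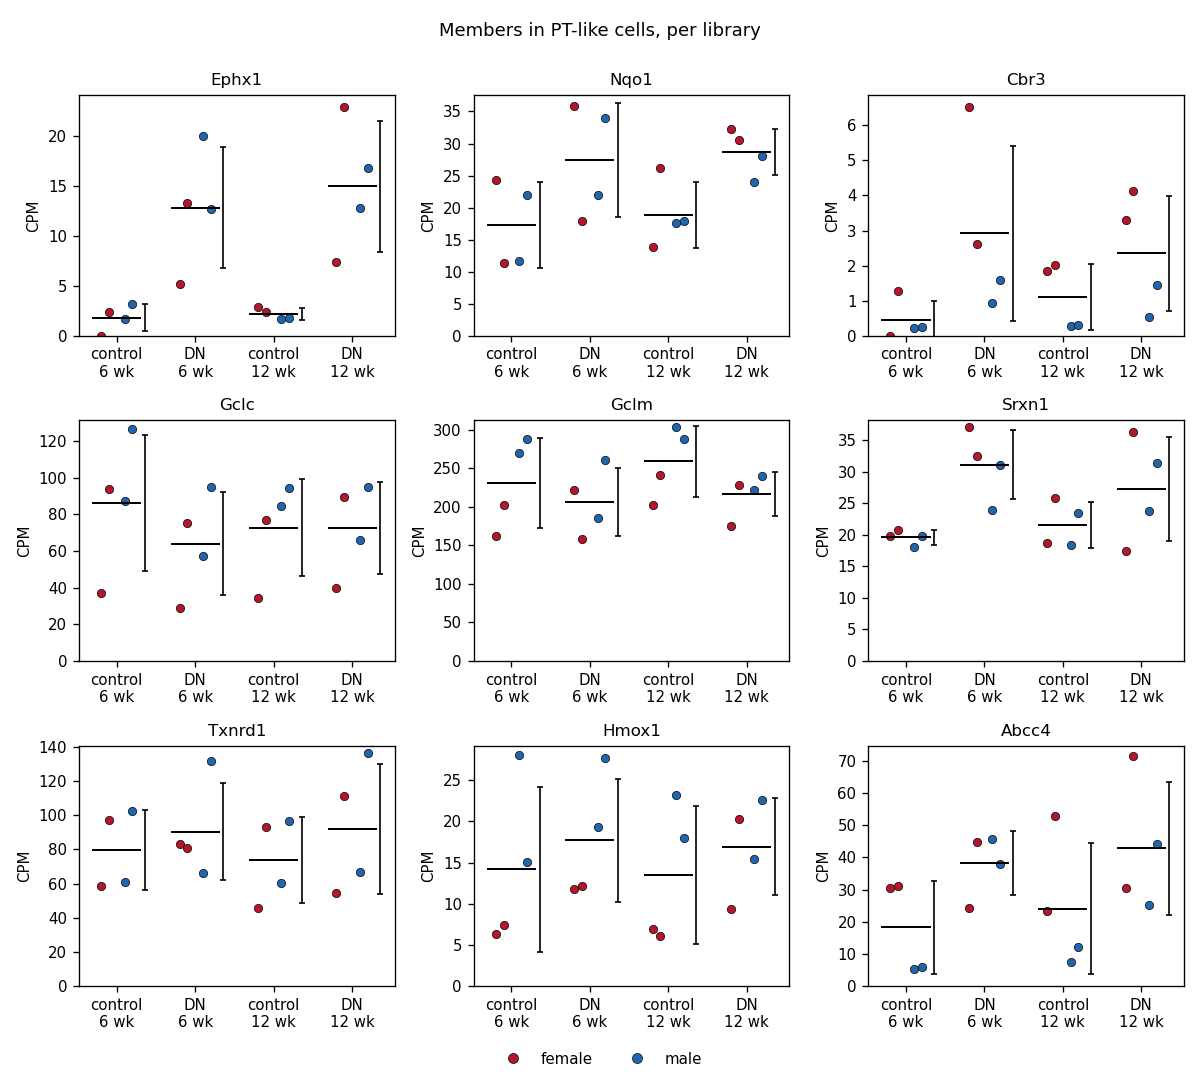
CPM of the 9 tested members in PT-like cells, 1 point per library (red female, blue male), for control and DN mice at 6 and 12 weeks. Horizontal bars are means and vertical bars SDs over 4 libraries, drawn no lower than 0; Ephx1 is the panel in which all DN points lie above all control points at both ages, and Gclc and Gclm show no such shift.

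Within the PT, clusters with markers of the first segment (S1-like) and of the later segments (S2-S3-like) carried several members, but not all, at different levels. Nqo1 was at 30.5 ± 11.1 CPM in S2-S3-like and 13.4 ± 4.98 CPM in S1-like cells (n = 16 libraries of both genotypes), higher in 16 of 16 libraries. Gclm was at 263 ± 57.0 and 170 ± 19.6 CPM, again higher in S2-S3-like cells in 16 of 16. Hmox1 and Srxn1 went the other way and were higher in S1-like cells in 14 of 16 libraries each. The log2 difference of Ephx1 between DN and control mice was 2.05 ± 0.46 at 6 weeks and 2.64 ± 0.42 at 12 weeks in S1-like cells, and 3.04 ± 0.33 and 3.04 ± 0.32 in S2-S3-like cells.

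Sex was a comparison that did not enter the choice of genes, and 4 of the 9 members differed by it in PT-like cells. Gclm and Hmox1 were lower in females, and Abcc4 and Cbr3 were higher, while no member passed edgeR's adjusted threshold in the other 10 classes. Hmox1 had its lowest, median and highest value at 6.03, 8.42 and 20.3 CPM in the 8 female and at 15.0, 21 and 28.0 CPM in the 8 male libraries, and its log2 difference (female minus male) was -1.15 ± 0.28 (edgeR, adjusted p = 0.00923). Gclm was at 158, 203 and 241 CPM in females and 185, 265 and 304 CPM in males, with a difference of -0.52 ± 0.13 (edgeR, adjusted p = 0.0113). The 2 sexes overlapped for both genes.

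Cbr3 was at 0, 2.31 and 6.53 CPM (lowest, median and highest) in female and 0.222, 0.423 and 1.59 CPM in male PT-like sums, a log2 difference of 1.77 ± 0.35 (edgeR, adjusted p = 0.00255). Abcc4 was at 38.6 ± 16.7 CPM in females and 23 ± 17.6 CPM in males (1.24 ± 0.34, adjusted p = 0.0158), an average over genotypes that differed in this respect, as the next paragraph shows. In PT-like cells 27.5% of all genes were called by sex, so 4 of 9 is not a result about these genes. In the other 10 classes edgeR called 0 of 78 member tests (9 at an unadjusted p under 0.05, as were 11.8% of all genes; DESeq2 called 1, Ephx1 in PC-like cells), beside 0.275% of all genes. All 4 shallow libraries were female; within the 12 deep libraries, which hold 4 female ones, the differences were -0.52 for Gclm, -1.15 for Hmox1, 1.32 for Abcc4 and 1.75 for Cbr3, each past the threshold. With the unnamed PT clusters described below added, Cbr3 was at 0.93 (edgeR, adjusted p = 0.0524) and Gclm at -0.42 (0.0605), neither past the threshold. In S1-like cells alone Abcc4 was at 0.26 (edgeR, adjusted p = 0.425) and Gclm at -0.22 (0.287), again not past it. Without the chemistry term Gclm (adjusted p = 0.114) and Abcc4 (0.0520) were not past the threshold. Without control male 6 weeks replicate 2 and its DN counterpart these 4 calls remained and 3 came in other classes: Srxn1 in aLOH-like (0.76, edgeR adjusted p = 0.0283), Ephx1 in PC-like (-0.52, 0.0422) and Abcc4 in IC-A-like cells (0.92, 0.00171). The share of all genes called in that fit is not given, so the 3 are not read as a result about the members. Leaving out control female 6 weeks replicate 2 ended the calls of Gclm, Hmox1 and Abcc4. DN female 6 weeks replicate 2 also decided the call of Gclm, and control female 12 weeks replicate 2 that of Abcc4, with edgeR adjusted p over all libraries left out of up to 0.0576 for Gclm, 0.0627 for Hmox1 and 0.0998 for Abcc4.

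Abcc4 in PT-like cells was then compared between genotypes within each sex. In females the mean was 34.5 ± 12.7 CPM in control and 42.7 ± 21 CPM in DN mice (n = 4 each), and in males it was 7.73 ± 3.11 and 38.3 ± 9.35 CPM. The control males were thus the group that stood apart, and DN males were at the level of females. The interaction is not the contrast that chose the genes, but it is read from the same PT values by genotype, so its p is not evidence independent of that choice. This interaction, the log2 difference in females minus that in males, was -2.0 ± 0.29 (edgeR, adjusted p = 0.00609), and Abcc4 was the 1 of 9 members called where 0.552% of all genes were. With the replicate block it was -1.94 ± 0.18 (edgeR, adjusted p = 0.000135), where 1.82% of all genes were called. Within the 12 deep libraries it was -1.83 ± 0.34 and not past the threshold (adjusted p = 0.182), nor was it without the chemistry term (-2.01, adjusted p = 0.0584). Without control male 6 weeks replicate 2 and its DN counterpart it was -2.07 (edgeR, adjusted p = 0.00168), and Hmox1 was called as well (1.46, 0.0365). How many of all genes were called in that fit is not given, so nothing is read from the added call.

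In S2-S3-like cells Abcc4 was at 0.585 and 4.79 CPM in control males at 6 weeks and 1.53 and 2.76 CPM at 12 weeks, against 45.7 and 31.6 CPM and then 19.3 and 35.5 CPM in DN males. All 4 control males were below all 4 DN males and below all 8 females, whose lowest value was 22.2 CPM. The share of all genes with this order was not counted. In S1-like cells control males were at 14.6, 17.2, 18.6 and 33.8 CPM and DN males at 45.9, 47.5, 31.4 and 59.9 CPM, ranges that overlap. The interaction was -3.29 ± 0.49 in S2-S3-like cells (edgeR, adjusted p = 0.00268) and -1.03 ± 0.29 in S1-like cells (adjusted p = 0.745); whether the segments differ was not tested, and this split was chosen after the data were seen. No member was called for this interaction in the other 10 classes (edgeR, 4 of 78 at an unadjusted p under 0.05, as were 1.77% of all genes; DESeq2 called 0), where 0.00305% of all genes were called. The interaction of Abcc4 in them ran from -0.82 to 0.10.

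**Figure D3:**
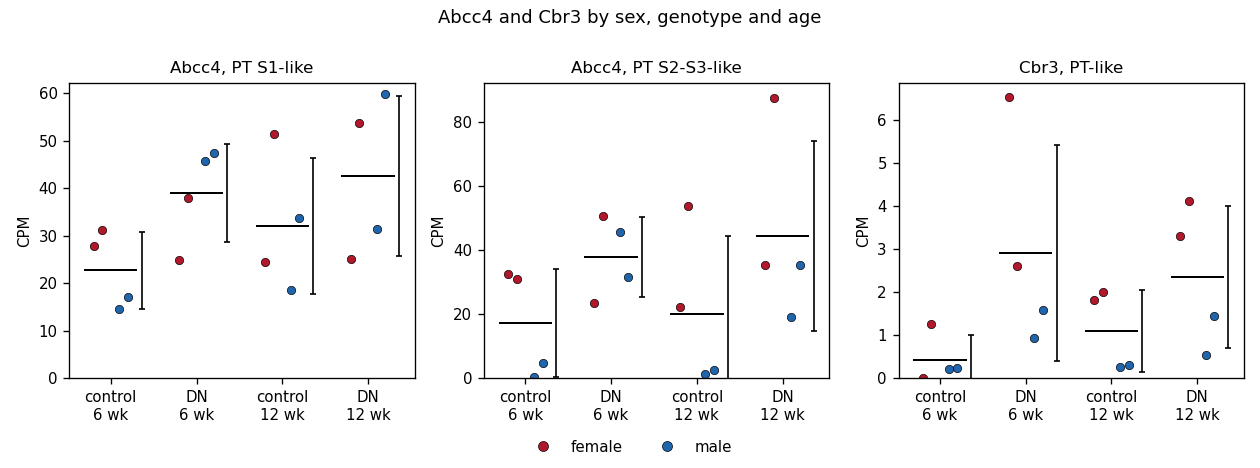
CPM of Abcc4 in PT S1-like and S2-S3-like cells and of Cbr3 in PT-like cells, 1 point per library (red female, blue male), with mean and SD over 4 libraries drawn no lower than 0. In the S2-S3-like panel the control males lie between 0.585 and 4.79 CPM and the DN males between 19.3 and 45.7 CPM, while females of both genotypes share one range.

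The highest levels of several members in any PT cells were in a cluster that no class name covers. It held 1294 cells, 954 from DN and 340 from control mice, and was led by Slc7a12, Serpina1f, Apoc3, Gc and Slc22a13. Of the 12 PT markers 5 were in at least 10% of its cells and over 2-fold above all other cells. The mean log2 ratio of the PT markers to all other cells was -0.157, under the minimum of 0.9 for a name. The cluster was thus left unnamed and is not part of the PT-like class. It made up a median of 7.85% of all PT cells in DN and 2.69% in control libraries, with ranges of 3.25 to 15.0% and 1.75 to 12.3% that overlap. It was singled out after its values were seen and its cells were clustered on their own expression, so the values are a description with no test. One control library (female 6 weeks replicate 1) with 8 cells of the cluster was left out.

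Nqo1 in this cluster was at 31.0, 19.4 and 44.2 CPM in the 3 control libraries used at 6 weeks and at 29.2, 44.3, 19.1 and 37.7 CPM at 12 weeks. In the DN libraries it was at 221, 215, 475 and 260 CPM at 6 weeks and 259, 192, 270 and 223 CPM at 12 weeks. All 8 DN values were above all 7 control values, and the means were 264 ± 89.2 and 32.1 ± 10.6 CPM. The share of all genes that were apart in this cluster was not counted, so nothing about the members is read from such separations. Ephx1 was between 1.49 and 19.4 CPM (25 UMIs) in control and between 21.4 and 186 CPM (1177 UMIs) in DN libraries, and Abcc4 between 0 and 1.94 CPM (2 UMIs) and between 14.3 and 89.3 CPM. Cbr3 had 0 UMIs in the control libraries and 3.01 to 20.0 CPM in the DN ones. The other unnamed PT clusters did not all share the Ephx1 difference. In the one led by Cyp4a14 it was at 21.4 ± 9.21 CPM in control and 31.0 ± 7.62 CPM in DN libraries (n = 8 each). In the one led by Sectm1b it was at 37.3 ± 12.6 CPM (n = 2) and 32.6 ± 22.2 CPM (n = 8). In the one led by Vmn1r18 it was at 2.32 ± 6.57 CPM (3 UMIs) and 13.0 ± 8.43 CPM (20 UMIs). Cells with markers of a second lineage were not removed from unnamed clusters. In the Cyp4a14 cluster 0 of 12 PT markers met the rule, and IC-A came second (mean log2 ratio 0.380 beside 0.706 for PT). In the Sectm1b cluster glomerular EC came second (0.960 beside 1.44). The part of such cells in these Ephx1 values was not tested.

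The other members overlapped between genotypes in the cluster led by Slc7a12. Gclm was at 1006 ± 151 CPM in control and 1163 ± 282 CPM in DN libraries, Gclc at 412 ± 146 and 349 ± 104 CPM, Txnrd1 at 77.2 ± 24.2 and 133 ± 38.1 CPM, Srxn1 at 14.5 ± 5.17 and 22.7 ± 6.77 CPM and Hmox1 at 9.12 ± 7.02 and 16.7 ± 3.99 CPM. PT markers in the cluster summed to 6355 to 11649 CPM in control and 4881 to 8236 CPM in DN libraries. The 8 dLOH markers summed to 349 to 1149 CPM and 1312 to 3640 CPM, so they moved with genotype too, and their part in the values of the cluster was not tested. With this cluster and the other unnamed PT clusters added to the PT-like sums, the log2 difference of Nqo1 became 1.74 at 6 weeks and 1.15 at 12 weeks, in place of 0.68 and 0.50, that of Ephx1 2.49 and 1.93, and that of Gclm 0.28 and -0.06 in place of -0.19 and -0.30. The added clusters still held any cells with markers of a second lineage.

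**Figure D4:**
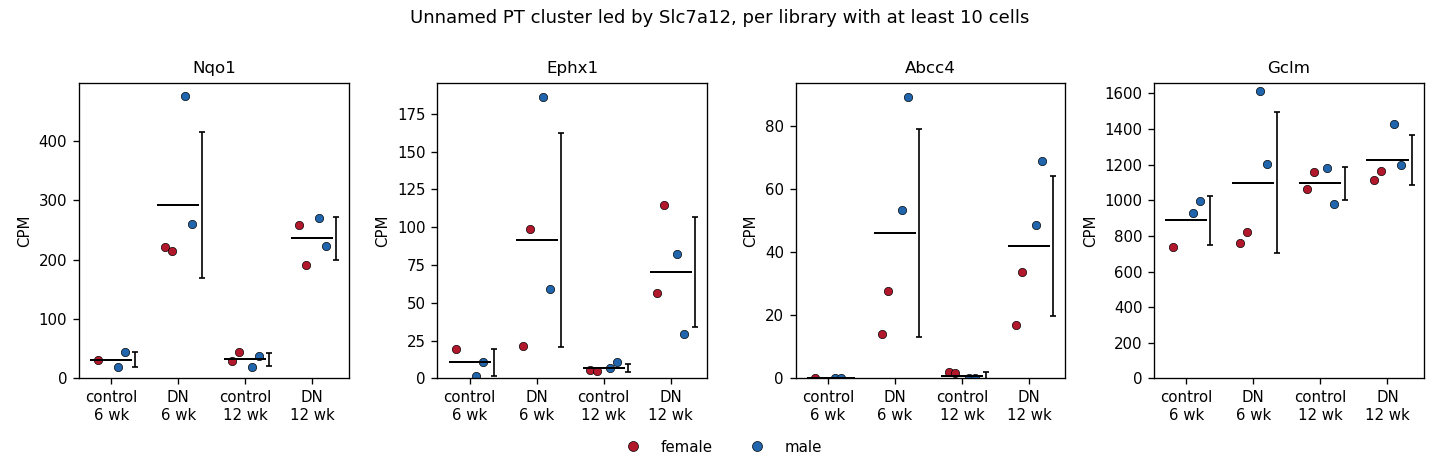
CPM of Nqo1, Ephx1, Abcc4 and Gclm in the unnamed PT cluster led by Slc7a12, 1 point per library (7 control, 8 DN; red female, blue male), with mean and SD drawn no lower than 0. Control and DN points are apart for Nqo1, Ephx1 and Abcc4 and overlap for Gclm.

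The genes were chosen on PT values, and the genotypes were also compared in the other 10 classes. At 6 weeks edgeR called 0 of 78 member tests in the other 10 classes (10 at an unadjusted p under 0.05, as were 5.95% of all genes; DESeq2 called 1), beside 0.227% of all genes. At 12 weeks it called 1 of 78, beside 1.15%. Both counts of calls are near those shares and are not read as a result about the members. Of the 78 differences 55 were positive at 6 weeks and 57 at 12 weeks, with medians of 0.14 and 0.17 on the log2 scale. Over all 98486 tests of genes in these classes 48.8% and 49.8% were positive, with medians of -0.0057 and -0.0012. No test was made of the members' direction. Ephx1 had differences between -0.24 and 0.59 at 6 weeks and between -0.34 and 0.49 at 12 weeks in these classes.

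The member called was Hmox1 in mesangial-like cells at 12 weeks. It was at 25.7 and 25.4 CPM in control females, 33.8 and 17.9 CPM in control males, 35.2 and 56.6 CPM in DN females and 69.5 and 37.4 CPM in DN males, so all 4 DN values were above all 4 control values, as they were for 3.91% of genes in this class. The log2 difference was 1.04 ± 0.28, or 2.06-fold (edgeR, adjusted p = 0.0321), where 5.7% of all genes were called. At 6 weeks the values were 27.9 ± 14.2 CPM in control and 30.5 ± 12.8 CPM in DN libraries and overlapped. Immune markers summed to 2.06 to 11 CPM in control and 3.74 to 7.04 CPM in DN mesangial-like sums at 12 weeks, and the dissociation stress list to 1182 to 1604 CPM and 1242 to 3311 CPM; the part of either in the Hmox1 result was not tested. The call was lost within the 12 deep libraries (1.11 ± 0.32, adjusted p = 0.0803), without the chemistry term (adjusted p = 0.0773) and on leaving out control female replicate 1 or 2, control male replicate 2, DN female replicate 2 or DN male replicate 1 of 12 weeks (edgeR, adjusted p up to 0.209).

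Principal cells went the other way for Hmox1. Control values at 6 weeks were 21.5 and 8.77 CPM in females and 18.9 and 11.7 CPM in males, and DN values 5.31 and 3.95 CPM in females and 6.87 and 6.17 CPM in males. At 12 weeks they were 10.4, 11.7, 14.7 and 12.4 CPM in control and 3.81, 9.87, 6.78 and 3.48 CPM in DN mice. All DN values were below all control values at each age, as for 1.17% and 3.69% of genes in the class. The log2 difference was -1.30 ± 0.32 at 6 weeks and -0.95 ± 0.32 at 12 weeks and did not pass (edgeR, adjusted p = 0.162 and 0.198). With the replicate block both passed (edgeR, adjusted p = 0.00653 and 0.0147), and DESeq2 called the first (-1.36, adjusted p = 0.0278). Immune markers were at most 13.8 CPM in any of these sums, and the dissociation stress list summed to 2256 to 3923 CPM in control and 1841 to 2675 CPM in DN libraries at 6 weeks, whose part in the result was not tested.

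The replicate block, which compares each DN library with the control library of the same sex, age and number, called 3 member tests at 6 weeks, where it called 1.4% of all genes in these 10 classes, and 5 at 12 weeks, where it called 3.74%. Besides Hmox1 in PC-like and mesangial-like cells these were Ephx1 in ascending loop of Henle (aLOH) cells at 6 weeks (0.61, adjusted p = 0.0125), Abcc4 in IC-B-like cells at 6 weeks (0.68, adjusted p = 0.0328), Ephx1 in IC-B-like cells at 12 weeks (0.51, adjusted p = 0.0244), and Txnrd1 (0.43, adjusted p = 0.0118) and Nqo1 (0.64, adjusted p = 0.0347) in PC-like cells at 12 weeks. Abcc4 in IC-B-like cells was between 10.7 and 13.2 CPM in the 4 control and between 14.7 and 23.3 CPM in the 4 DN libraries at 6 weeks, ranges in that order for 0.607% of genes in the class. Without the block none of these 5 passed, so these calls depend on the pairing.

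**Figure D5:**
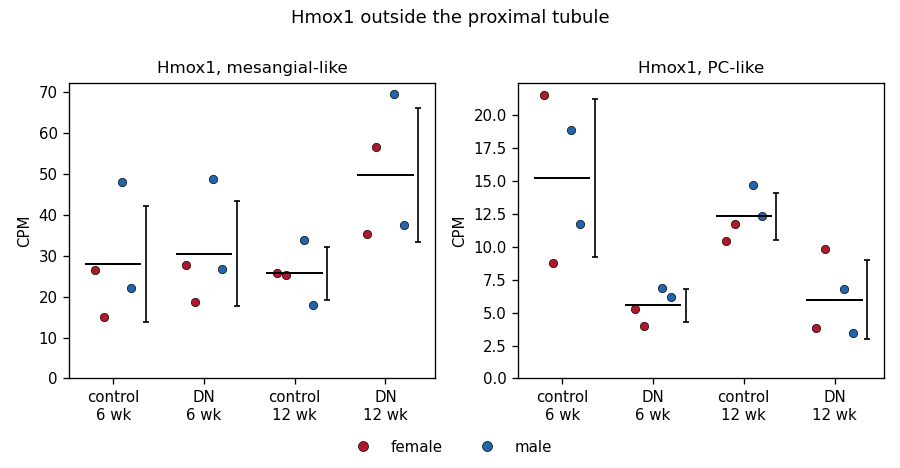
CPM of Hmox1 in mesangial-like and PC-like cells, 1 point per library (red female, blue male), with mean and SD over 4 libraries. In mesangial-like cells the DN points at 12 weeks (35.2 to 69.5 CPM) lie above the control points (17.9 to 33.8 CPM), and in PC-like cells the DN points lie below the control points at both ages.

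Age alone changed no member past the threshold. For 12 against 6 weeks edgeR called 0 of 87 member tests in the 11 classes (8 at an unadjusted p under 0.05, as were 6.76% of all genes; DESeq2 called 0), where 0.0533% of all genes were called. For the difference of the genotype effect between the ages it called 0 of 87 (5 at an unadjusted p under 0.05, as were 2.11% of all genes; DESeq2 called 0), where 0.00452% were. Few genes of any kind were called, so these counts do not show that the members were at equal levels at both ages. Without control male 6 weeks replicate 2, whose DCT-like sum held 494713 UMIs from 209 cells, and its DN counterpart, Nqo1 was called as lower at 12 weeks in DCT-like cells (-0.70, edgeR adjusted p = 0.00266). How many of all genes were called in that fit is not given, so nothing is read from this call.

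The rest of the pathway was read from a list of 51 further genes, regulators and known targets, of which 48 were tested in PT-like cells. Nfe2l2 itself was at 36.8 ± 9.69 CPM in control PT-like cells and its log2 difference in DN mice at 6 weeks was 0.48 ± 0.14 (edgeR, adjusted p = 0.162). Of 439 tests of these genes in the 11 classes, 1 passed as higher and 1 as lower in DN mice at 6 weeks, where 0.299% of all tests were called. At 12 weeks 5 passed as higher (Idh1 in 3 classes, Blvra and Gsta4) and 1 as lower, where 1.13% were. The gene that fell at both ages was Ggt1, the brush border enzyme that starts the breakdown of glutathione outside the cell, in PT-like cells (488 ± 167 CPM in control, 337 ± 95.3 CPM in DN at 6 weeks, log2 difference -0.53 ± 0.12, adjusted p = 0.0484). Gsta3, a glutathione transferase, rose in IC-A-like cells at 6 weeks (52.1 ± 17.2 to 101 ± 43.8 CPM, 1.05 ± 0.17, adjusted p = 0.00467). Neither call at 6 weeks held without the chemistry term (edgeR, adjusted p = 0.0784 for Gsta3 and 0.399 for Ggt1) or at no more than 20% mitochondrial counts (1.0 and 0.0768). The call of Ggt1 was lost on leaving out 14 of the 16 libraries in turn at 6 weeks (edgeR, adjusted p up to 0.158) and 13 at 12 weeks (up to 0.180), with log2 differences between -0.61 and -0.46 over all these fits.

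At 12 weeks the 5 calls of higher genes lay in the distal nephron and in the glomerulus. Idh1, the cytosolic isocitrate dehydrogenase that makes NADPH, rose in PC-like cells from 75.7 ± 9.84 to 436 ± 43.7 CPM (log2 difference 2.63 ± 0.35, edgeR adjusted p = 0.000861) and in CNT-like cells from 46.4 ± 15.2 to 258 ± 73.2 CPM (2.52 ± 0.38, adjusted p = 0.00188). It also rose in mesangial-like cells, from 154 ± 28.3 to 217 ± 27.5 CPM (0.56 ± 0.14, edgeR adjusted p = 0.0182). Blvra, the biliverdin reductase that acts after Hmox1 in haem breakdown, rose in mesangial-like cells from 38.5 ± 7.07 to 63.5 ± 5.59 CPM (0.81 ± 0.17, adjusted p = 0.00434), the class in which Hmox1 was called. Gsta4, a glutathione transferase, rose in podocyte-like cells from 320.2 ± 36.8 to 593 ± 167 CPM (0.87 ± 0.20, adjusted p = 0.0174). The mesangial call of Idh1 and that of Gsta4 were lost without the chemistry term (edgeR, adjusted p = 0.123 and 0.102) and in the 12 deep libraries (0.0602 and 0.0817). That of Gsta4 was also lost with at least 30 cells per library (0.0818). Each was lost on leaving out any of 5 of the 16 libraries in turn, with adjusted p up to 0.118 for Idh1 and 0.184 for Gsta4. With the replicate block 21 of the 439 tests of the list passed at 6 weeks and 29 at 12 weeks, where 1.49% and 3.64% of all genes did.

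By sex, 9 genes of the list were higher and 15 lower in female PT-like cells, where 11.4% and 16.1% of all genes were. The smallest adjusted p among the higher genes were those of Cbr1, a second carbonyl reductase (159 ± 38.8 CPM in females, 43.5 ± 20.6 CPM in males, log2 difference 1.56 ± 0.28, edgeR adjusted p = 0.00152), and of Gsta4 and Ugt1a6a. Among the lower genes they were those of Ggt1 (305 ± 92.8 and 555 ± 113 CPM, -0.80 ± 0.10, adjusted p = 0.000212), Me1 and Gss. Me1 encodes malic enzyme, a source of NADPH, and Gss the second enzyme of glutathione synthesis. Prdx1, Ftl1 and Gstm5, counted as lower, had higher mean CPM in females (1980 against 1739, 7716 against 5499 and 394 against 358 CPM). Their fitted differences were negative in the fit with the chemistry term, and all 4 libraries of the other barcode list were female. In the other classes 6 of 391 tests of the list passed by sex, where 0.275% of all genes did, 4 in PC-like and 2 in IC-B-like cells, all lower in females.

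The genes whose level over the 16 PT-like sums was most like that of Ephx1 were found among the 12128 genes with a unique symbol that passed the filter, by Pearson's r of log2(CPM + 1). They were Pbx4 (r = 0.92), Sulf2 (0.92), Nek6 (0.91), Slc5a10 (0.90), a sugar transporter, and C3 (0.90), the complement component. These 16 sums share 2 genotypes, and each of these genes was higher in DN than in control mice, C3 at 62.7 against 8.48 CPM and Slc5a10 at 209 against 75.1 CPM. Among the members r with Ephx1 was 0.63 for Srxn1, 0.56 for Abcc4, 0.52 for Cbr3, 0.45 for Nqo1, 0.43 for Hmox1, 0.39 for Txnrd1, 0.15 for Gclc and -0.16 for Gclm.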

How the data were processed

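Single-cell RNA was measured in 16 libraries with 10x Genomics 3' kits of 2 versions; per the labels, the authors aligned reads to mm10 and counted UMIs with Cell Ranger 3.0.2, and the deposited matrices hold these raw counts. Barcodes with 200 to 7000 genes and at most 50% mitochondrial counts (20% in non-tubular clusters) were kept. Cells were clustered (scanpy 1.11.5, Leiden resolution 1, 2000 variable genes, 30 components, batch-corrected). Clusters were named from fixed markers, with 3 or more over 2-fold above all other cells. Cells with markers of a second lineage were removed as doublets, but not from unnamed clusters or dividing cells. One further marker is not reported here. The kit version is not assigned to libraries in the labels, so 2 barcode lists stood for chemistry.

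Counts were summed per library and class (10 cells or more) and tested with edgeR 4.0.16 (TMM, filterByExpr, quasi-likelihood test), with terms for age, sex within age, genotype within age and chemistry, and Benjamini-Hochberg adjustment over all genes of a class, called at 0.05. The interaction of genotype and sex was a contrast of the 8 group means. The study tested single cells; sums were used here because cells are not replicates. Errors are SD over libraries or SE of fits. DESeq2 1.42.0 was an alternative, as were others named in the closing section. The procedures were tested on simulated data, where not all changed genes were recovered and some unchanged genes were called. Same-numbered libraries of the 2 genotypes deviated together from their group means (correlations of 0.165 to 0.775 in all 11 classes, 8 pairs each). With 2 libraries per group, the 2 pairs of a sex and age mirror each other. In females replicate 1 was the shallow library of the other barcode list in both genotypes. Kit and depth cannot be told apart from pairing there. In males the correlations ran from 0.165 to 0.499. No label gives the pairing, so the fit with pairs as a block is given only as an alternative, where it changes a call. The labels give 1 library per mouse. No 2 replicates agreed within sampling noise in the PT-like and mesangial-like sums, the classes in which this was checked.

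Members, gene lists and comparisons were chosen with earlier results of these data known. All 10 members are named, with at most 3 pathway genes per comparison and direction by adjusted p, and the 5 genes most like Ephx1. Gene positions and promoters are from GRCm38. Depth limits the low genes: Cbr3 and Ephx1 rested on few UMIs in control PT-like cells, and counting error adds to their spread.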

Additional observations from a re-analysis of the deposited data

Results flagged for a closer look

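In PT-like cells the genotype difference differed between the sexes for 1 member and 2 further pathway genes by the interaction test of edgeR. For Abcc4 the log2 difference in females minus that in males was -2.0 (adjusted p = 0.00609), from the PT values by genotype on which the genes were chosen. The call of Abcc4 was lost in the 12 deep libraries (edgeR, adjusted p = 0.182), without the chemistry term (0.0584) and in S1-like cells alone (0.745). Over all alternatives its interaction ran from -3.29 to -1.03. For Gsta2, a glutathione transferase whose reads may be shared with its close paralog Gsta1, it was -2.54 ± 0.33 (edgeR, adjusted p = 0.00352). Its mean was 1477 ± 495 CPM in control and 1649 ± 744 CPM in DN females (n = 4 each). In males it was 119 ± 37.2 CPM in control and 763 ± 225 CPM in DN mice, with ranges of 68.3 to 157 CPM and 472 to 960 CPM. For Cbr1 the interaction was -1.46 ± 0.28 (edgeR, adjusted p = 0.0347). Its means were 170 ± 15.7 and 148 ± 54.4 CPM in control and DN females and 25.6 ± 2.80 and 61.5 ± 11.2 CPM in control and DN males. In PT-like cells 0.552% of all genes were called for this interaction. With the replicate block the adjusted p was 3.9e-05 for Gsta2 and 0.00258 for Cbr1. Both calls were lost in the 12 deep libraries (edgeR, adjusted p = 0.0841 for Gsta2 and 0.161 for Cbr1), without the chemistry term (0.413 and 0.939) and in S1-like cells (0.141 and 1.0). Cbr1 also lost its call at no more than 20% mitochondrial counts (edgeR, adjusted p = 0.0877) and on leaving out 11 of the 16 libraries in turn (up to 0.160). With each library left out, the interaction was between -1.68 and -1.23 for Cbr1 and between -2.79 and -2.30 for Gsta2. Dixon's test on the members' CPM flagged none of 40 groups of 4 values, which does not bear on the library described above by its depth.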

How the results depend on the processing

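Each result was recomputed under up to 15 alternatives and with each library left out. Of 734 such values for 24 single genes and comparisons, 698 kept their side of the threshold with their direction or, where untested, moved by less than their spread, 21 lost the call and 15 moved by more. No called value changed sign, but 8 values of genotype differences in PT-like cells that were not called did: Gclm at 6 weeks was at 0.10 in S1-like cells and 0.28 with the unnamed clusters, Gclc at 12 weeks was at 0.21 in S1-like cells, and 5 fits without 1 library turned Gclc or Hmox1 at 12 weeks or Txnrd1 at 6 weeks, to between -0.03 and 0.06. Counts of members called follow, with the main count first, and the cause of each change was not tested. The share of all genes called changed with the setting too, so these counts are not read as results about the members. In PT-like cells at 6 weeks edgeR called 107 of 12132 genes, DESeq2 238 and the replicate block 266. For most alternatives this share is not given. Segment, unnamed-cluster and pair alternatives were chosen after seeing the data. For genotype at 6 weeks in the 10 classes other than PT (0 called), DESeq2 and no filter on low counts gave 1 each and the replicate block 3. At 12 weeks (1 called) no filter gave 3, no chemistry term and the 12 deep libraries 0 each, the replicate block 5 and at most 20% mitochondrial counts 2. In PT-like cells at 6 weeks (1 called) DESeq2 gave 3, no filter 5, the block 4, S1-like cells 0, S2-S3-like cells 3 and added unnamed clusters 3. At 12 weeks (1 called) no filter gave 3 and added unnamed clusters 2. By sex (4 called) no filter gave 8, no chemistry term 2, S1-like cells 1, added unnamed clusters 2, and leaving out the male 6 weeks pair 2 gave 7. By age (0 called) no filter gave 2 and leaving out that pair 1, Nqo1 in DCT-like cells. For genotype by sex (1 called) no filter gave 2, no chemistry term, the 12 deep libraries and S1-like cells 0 each, and leaving out that pair 2. Genotype by age stayed at 0. For the pathway list at 6 weeks (2 called) DESeq2 gave 6, size factors 1, no filter 29, no chemistry term 0, the 12 deep libraries 1, the block 21, at most 20% mitochondrial counts 0, S1-like cells 1 and leaving out that pair 1. At 12 weeks (6 called) DESeq2 gave 11, no filter 34, no chemistry term 3 and the block 29. With single libraries left out, counts ran from 0 to 0 and 0 to 2 in the 10 classes at 6 and 12 weeks, 1 to 2 and 1 to 1 in PT-like cells, 1 to 5 by sex, 0 to 1 by age, 0 to 0 for genotype by age, 1 to 1 for genotype by sex, and 1 to 6 and 3 to 8 for the pathway list. The replicate block changed no other call of a member. The 12 deep libraries include 1 female per group, so they limit the sex comparison.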
